A study of Mus musculus with 8 samples.

Results

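The IL-6 family was represented here by 9 genes chosen by name: the ligands Il6, Lif, Il11 and Clcf1 and the receptor subunits Il6ra, Il6st, Lifr, Osmr and Il11ra1. All 9 were among the 47706 genes of the count table and among the 16736 genes with enough counts to be tested. RNA was sequenced from 4 primary calvarial osteoblast cultures treated with PTH, the bone-active fragment of parathyroid hormone, and 4 treated with vehicle. Osteoblasts build bone matrix, and these, obtained by digestion of the skullcaps of newborn mice, were differentiated for 7 days and exposed to hormone or vehicle for 24 hours after serum starvation. The methods describe osteogenic medium with β-glycerol phosphate and ascorbic acid, whereas the labels of all 8 samples name adipogenic differentiation. All 8 titles also carry the prefix Con, which the labels do not explain, and neither labels nor methods state strain, sex or whether the cultures came from separate preparations of cells. The p-values therefore measure the spread between these cultures, which may be technical. Total counts ranged from 33605610 to 56090654 per sample. The RANKL gene Tnfsf11, an established PTH target, checked the labels: it averaged 1.42 CPM in the vehicle group and 128 CPM in the PTH group (n = 4 each), where CPM is the count scaled to the TMM-normalized library.

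IL-6 family cytokines signal through gp130, the shared receptor subunit encoded by Il6st. IL-6 and IL-11 bind the private receptors encoded by Il6ra and Il11ra1, which then pair gp130 with itself, whereas LIF joins gp130 to the LIF receptor and oncostatin M joins it to the oncostatin M receptor. CLCF1 acts through the CNTF receptor, LIF receptor and gp130. Bound receptors activate JAK kinases and STAT3, and SOCS3 limits the signal. In bone, osteoblast lineage cells both produce these cytokines and respond to them, and the family takes part in the control of osteoblast and osteoclast formation.

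PTH raised the expression of all 4 ligands and changed the receptor subunits unevenly. Il6 was upregulated from near absence, Lif about 20.3-fold, and Clcf1 and Il11 by less. Among receptor subunits, Il6st and Osmr were upregulated and Lifr was downregulated. Il6ra and Il11ra1 did not pass the test. Thus 6 of 9 members were upregulated and 1 was downregulated at an adjusted p under 0.05 in edgeR's quasi-likelihood test, against 23.3% and 22.5% of all tested genes. Counted in either direction, 77.8% of members passed, against 45.8% of all tested genes. When the change also had to reach 1 on the log2 scale, 4 members were higher (Il6, Lif, Clcf1 and Osmr) and 1 was lower (Lifr), against 7.36% and 3.88% of tested genes. The median log2 fold change was 0.99 over the members and -0.00081 over all tested genes. In 7 of 9 members the 4 PTH-treated samples did not overlap the 4 vehicle-treated samples, which held for 43.0% of tested genes. The members were chosen with earlier results of these data known. Their shares and median are therefore not an unbiased comparison with all tested genes.

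**Figure D1:**
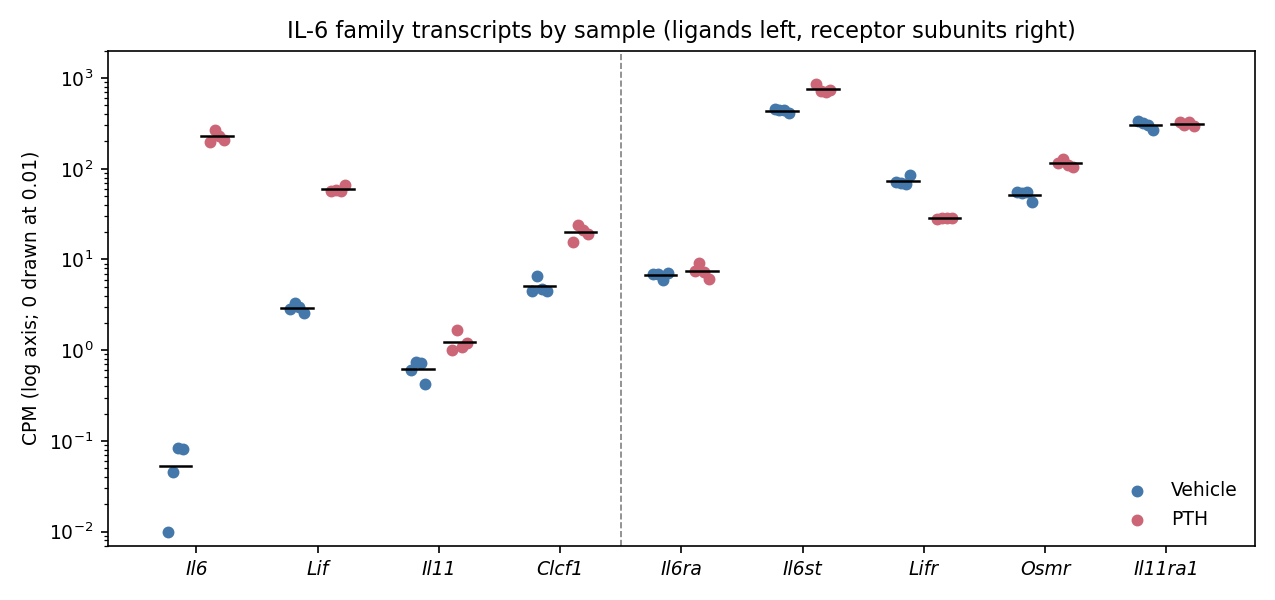
CPM of each member in each sample on a log axis, with ligands left and receptor subunits right of the dashed line. Points are samples, bars are means of 4, and a value of 0 is drawn at 0.01. PTH-treated samples lie above vehicle-treated ones for Il6 (197 to 269 against 0 to 0.0835), Lif, Il11, Clcf1, Il6st and Osmr, lie below them for Lifr, and overlap them for Il6ra and Il11ra1.

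The promoters of the ligands with the largest increases and of the receptor subunit that fell are shown as the 250 bases before a transcription start, 5′ to 3′, from RefSeq on GRCm38.p6. Capitals mark matches, on either strand, to the letters of 5 motifs: the cAMP response element (CRE) TGACGTCA, its core TGACG, the AP-1 site TGANTCA, the C/EBP site TTGCNNAA and the STAT site TTCNNNGAA. These are elements bound by factors that act below the PTH receptor or gp130.
Il6, chr5:30012864-30013113, plus strand: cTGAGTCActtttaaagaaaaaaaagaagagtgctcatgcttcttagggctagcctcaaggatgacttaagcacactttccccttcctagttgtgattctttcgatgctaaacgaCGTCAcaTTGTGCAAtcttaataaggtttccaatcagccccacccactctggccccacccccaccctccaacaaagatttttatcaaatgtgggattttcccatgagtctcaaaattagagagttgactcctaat
Lif, chr11:4257318-4257567, plus strand: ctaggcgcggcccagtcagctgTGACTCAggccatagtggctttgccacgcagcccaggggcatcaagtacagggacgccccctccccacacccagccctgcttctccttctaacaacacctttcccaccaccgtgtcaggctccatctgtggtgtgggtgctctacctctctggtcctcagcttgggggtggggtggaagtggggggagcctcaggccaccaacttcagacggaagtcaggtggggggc
Lifr, chr15:7129322-7129571, plus strand: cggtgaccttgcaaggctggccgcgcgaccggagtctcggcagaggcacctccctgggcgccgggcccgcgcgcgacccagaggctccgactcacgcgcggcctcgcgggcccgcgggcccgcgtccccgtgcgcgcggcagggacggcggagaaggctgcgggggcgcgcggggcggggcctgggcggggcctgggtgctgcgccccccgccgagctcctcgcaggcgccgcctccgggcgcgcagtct
The Il6 window held AP-1 letters 249 bases upstream of the start, the CRE core on the minus strand at 135 bases and, beside it, C/EBP letters at 128 bases. The Lif window held AP-1 letters at 228 bases, and the Lifr window shown, the first of 2 in RefSeq, held no match. RefSeq windows of 300 bases, which also take in the start of the transcript, were found for 8 of the 9 members, in 11 windows, with none for Clcf1. AP-1 letters occurred in 4 of these 11 windows (Il6, Lif, Il11 and Osmr) and in 7.81% of all 32851 windows. The CRE core occurred in 2 (Il6 and Il6ra) and in 20.8% of all windows, and C/EBP letters in 1 (Il6) and in 10.8%. The full CRE, present in 1.79% of all windows, and the STAT letters, present in 8.3%, were not found in any of the 11. The CRE core is part of the full CRE, so matches to these overlap. A match describes letters in the window and is not evidence of binding.

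Il6 (chromosome 5, 30013114 to 30019981, plus strand, GENCODE M21 on GRCm38) encodes the founding cytokine of the family. It had 0, 2, 4 and 4 counts in the vehicle-treated samples and 10113, 8924, 8894 and 8818 counts in the PTH-treated samples. Every PTH-treated sample was far above every vehicle-treated one. Scaled to library size, Il6 averaged 0.0525 ± 0.0389 CPM with vehicle and 227 ± 31.3 CPM with PTH (SD, n = 4). The summed counts, 10 with vehicle and 36749 with PTH, gave a ratio of 4144 after scaling to the summed TMM-normalized library sizes (exact 95% interval 2253 to 8642, counting error only). This interval treats each count as an independent read. The deposited counts are estimates from the coverage of paired reads, so the interval may be too narrow. The fitted log2 fold change was 11.97 (SE 0.228, edgeR adjusted p = 5.44e-12), and the increase ranked 2 among all tested genes. This SE was back-calculated from the F statistic of the test. It understates the uncertainty left by 10 vehicle counts, for which the exact interval, though of counting error only, is wider.

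Lif (chromosome 11, 4257557 to 4272514, plus strand) encodes leukemia inhibitory factor. Its level was 2.88, 3.31, 2.96 and 2.54 CPM with vehicle and 56.8, 58.4, 57.1 and 65.4 CPM with PTH. The treatments were far apart and the samples within each lay close together. Its log2 fold change was 4.35 (SE 0.0978, edgeR adjusted p = 1.23e-11), which ranked 110 among increases. Clcf1 (chromosome 19, 4214238 to 4223490, plus strand) encodes cardiotrophin-like cytokine factor 1. It measured 4.53, 6.61, 4.74 and 4.45 CPM with vehicle and 15.4, 23.9, 21.3 and 19.1 CPM with PTH, which corresponds to a log2 fold change of 1.97 (SE 0.162, edgeR adjusted p = 1.08e-06). All PTH-treated samples exceeded all vehicle-treated ones, although vehicle replicate 2 stood above the other vehicle-treated samples. Without it the Clcf1 log2 fold change was 2.11. Clcf1 overlaps AC109138.7 on the same strand, with which it shares an alignment of 313 bases, and Gm26115 on the other strand.

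Il11 (chromosome 7, 4772373 to 4782859, minus strand), which encodes interleukin-11, was the ligand with the fewest counts after PTH. It had 27, 32, 35 and 21 counts with vehicle and 51, 56, 42 and 50 counts with PTH. In CPM, the vehicle-treated samples measured 0.602, 0.735, 0.730 and 0.423 and the PTH-treated samples 0.995, 1.68, 1.10 and 1.19. The groups did not overlap, and PTH replicate 2 was the highest sample. Il11 was upregulated by 0.99 on the log2 scale (SE 0.323, edgeR adjusted p = 0.0250). That call was lost without PTH replicate 2 (adjusted p = 0.0714), vehicle replicate 1 (0.0520) or vehicle replicate 4 (0.0643), while the log2 fold change stayed between 0.82 and 1.08 when any single sample was left out.

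Il6st (chromosome 13, 112464070 to 112510086, plus strand), which encodes the shared signal transducer gp130, was increased from an already high level. It measured 458, 440, 442 and 414 CPM with vehicle and 855, 715, 698 and 737 CPM with PTH. No PTH-treated sample came near the vehicle range, and PTH replicate 1 was the highest. The log2 fold change of Il6st was 0.78 (SE 0.0797, edgeR adjusted p = 7.91e-06).

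Lifr and Osmr lie next to each other on chromosome 15 (Lifr at 7090614 to 7197489 on the plus strand, Osmr at 6813577 to 6874969 on the minus strand) and changed in opposite directions. Lifr, the LIF receptor, measured 71.2, 69.4, 68.4 and 85.9 CPM with vehicle and 27.7, 28.7, 28.7 and 28.7 CPM with PTH. Every PTH-treated sample lay below the vehicle range, and the log2 fold change was -1.37 (SE 0.0801, edgeR adjusted p = 4.93e-08). Osmr, the oncostatin M receptor, measured 55.2, 54.5, 55.3 and 42.8 CPM with vehicle and 116, 129, 109 and 104 CPM with PTH. Its groups were likewise separate, with a log2 fold change of 1.14 (SE 0.0959, edgeR adjusted p = 1.30e-06). Vehicle replicate 4 was the highest vehicle-treated sample for Lifr and the lowest for Osmr. Without it the log2 fold change was -1.29 for Lifr and 1.06 for Osmr, and both calls were kept.

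Il6ra (chromosome 3, 89864059 to 89913196, minus strand), which encodes the IL-6-binding subunit, was low in both treatments. It measured 6.85, 6.89, 5.88 and 7.18 CPM with vehicle and 7.37, 9.06, 7.28 and 6.09 CPM with PTH. The groups overlapped, and the log2 fold change of 0.15 had a 95% interval of -0.18 to 0.49 (edgeR adjusted p = 0.397). Il11ra1 (chromosome 4, 41699989 to 41769474, plus strand), which encodes the IL-11-binding subunit, was abundant in both treatments. It measured 332, 317, 300 and 267 CPM with vehicle and 326, 304, 331 and 295 CPM with PTH, again overlapping. Its log2 fold change of 0.05 had a 95% interval of -0.15 to 0.24 (edgeR adjusted p = 0.669), and it was -0.015 without vehicle replicate 4. These intervals leave room for small changes of either sign and not for a change of the size seen in Lifr or Osmr.

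Counting limits apply to the private receptors. Il11ra1 shares alignments of 2578 bases with Gm13305 and 1299 bases with Il11ra2 at 95% identity or more, but these copies had 65 to 123 and 135 to 262 counts per sample against 10089 to 16718 for Il11ra1. Summing the copies, an alternative chosen after seeing the data, left the log2 fold change at 0.05. Il11ra1 also overlaps 6 annotated genes, 5 of them on the other strand, and Il6ra overlaps Gm42809, which had at most 6 counts. The strand setting of the counting is not given in the sources used here, so reads of overlapping genes on opposite strands may not have been told apart. Exact permutation tests of log2(CPM + 0.1) gave p = 0.0286, the smallest that 4 against 4 samples allow in a two-sided test, for each of the 7 members that passed, and p = 0.314 for Il6ra and p = 0.571 for Il11ra1.

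The balance between receptor subunits was examined as ratios within each sample, which do not depend on library size. The log2 ratio of Lifr to Il6st was -2.69, -2.66, -2.69 and -2.27 with vehicle and -4.95, -4.64, -4.60 and -4.68 with PTH. It fell 4.41-fold (difference -2.14 on the log2 scale). The log2 ratio of Osmr to Lifr was -0.37, -0.35, -0.31 and -1.004 with vehicle and 2.07, 2.17, 1.93 and 1.86 with PTH, an increase of 5.71-fold. In counts, Lifr thus exceeded Osmr in every vehicle-treated sample and Osmr exceeded Lifr in every PTH-treated sample. The log2 ratio of Il6ra to Il6st averaged -6.04 ± 0.158 with vehicle and -6.67 ± 0.283 with PTH, a difference of -0.63. For Osmr to Il6st it averaged -3.08 ± 0.129 and -2.71 ± 0.184, a 1.30-fold increase. All 4 ratios were separate between treatments (exact permutation test, two-sided, p = 0.0286, and 0.0286 after adjustment over the 4). For Lifr to Il6st and Osmr to Lifr, separation already followed from the separate and opposite changes of the genes compared. The test therefore adds nothing for those ratios. Osmr to Lifr also follows from the ratios of Osmr and Lifr to Il6st, so the 4 are not independent. Leaving out a sample cannot make separate groups overlap, so it does not test this separation. With 3 samples against 4, the exact p for Il6ra to Il6st without any 1 of the vehicle-treated samples and for Osmr to Il6st without vehicle replicate 1 or 4 was 0.0571, the value that full separation can give at that size. Without vehicle replicate 4, the log2 difference was -2.04 for Lifr to Il6st and 2.35 for Osmr to Lifr.

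**Figure D2:**
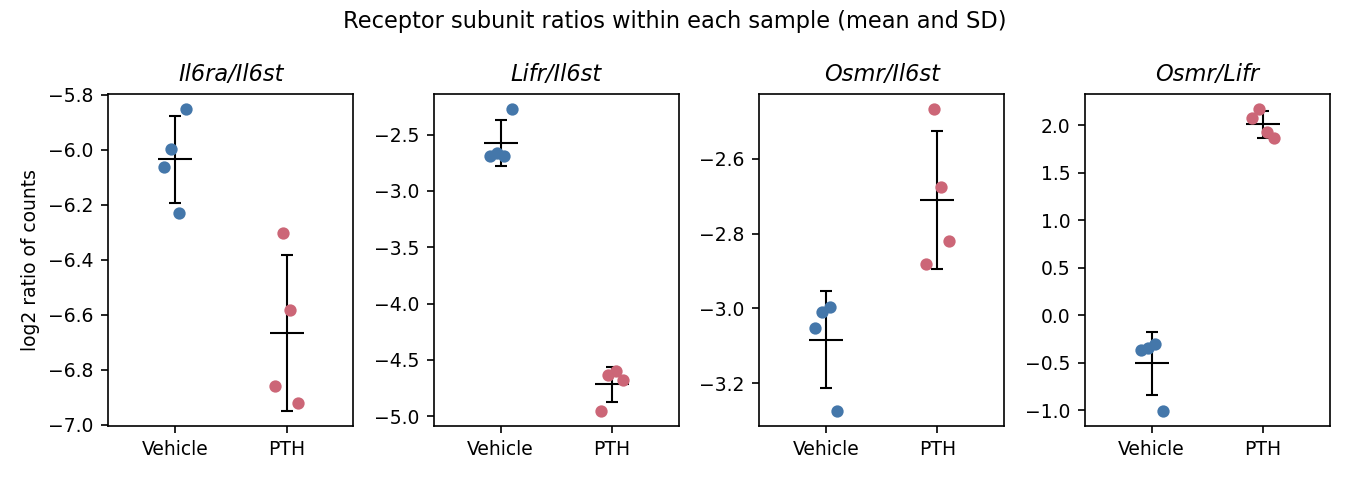
The log2 ratio of receptor subunit counts in each sample, with 1 panel and its own axis per pair, points for samples and bars for the mean and SD of 4. Osmr to Lifr runs from -1.004 to -0.31 with vehicle and from 1.86 to 2.17 with PTH, and vehicle replicate 4 lies apart from the other vehicle-treated samples in both panels that include Lifr.

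To compare levels between genes, CPM was divided by kilobases of annotated exon. With vehicle, Il11ra1 was highest at 68.0 ± 6.28 CPM per kilobase, followed by Il6st at 39.5 ± 1.65, Lifr at 6.84 ± 0.759 and Osmr at 4.29 ± 0.505. Below these came Clcf1 at 1.34 ± 0.270, Il6ra at 0.775 ± 0.0652, Lif at 0.672 ± 0.0724, Il11 at 0.299 ± 0.0703 and Il6 at 0.0216 ± 0.0160. All neighbours in this order were separate in the 4 samples except Il6ra and Lif. With PTH, Il6 moved from last to first at 93.4 ± 12.9 CPM per kilobase, above Il11ra1 at 70.2 ± 3.94 and Il6st at 67.7 ± 6.42, which overlapped. Lif followed at 13.7 ± 0.936, Osmr at 9.48 ± 0.898, Clcf1 at 5.23 ± 0.941 and Lifr at 2.64 ± 0.0494. Il6ra at 0.862 ± 0.141 and Il11 at 0.596 ± 0.147 were lowest and overlapped. The order of some neighbours depended on the length used, since the union of exons and the longest transcript differ most for Osmr (12113 and 5491 bases) and Il11ra1 (4471 and 2605 bases). By longest transcript, Osmr stood above Lifr with vehicle (9.46 against 7.64, overlapping) and above Lif with PTH (20.9 against 14.8), and Il11ra1 stood above Il6 with PTH (121 against 96.8, overlapping). Among 16199 genes with a length, Il6 moved from rank 16107 with vehicle to rank 549 with PTH, and Lifr from rank 5726 to 9271.

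**Figure D3:**
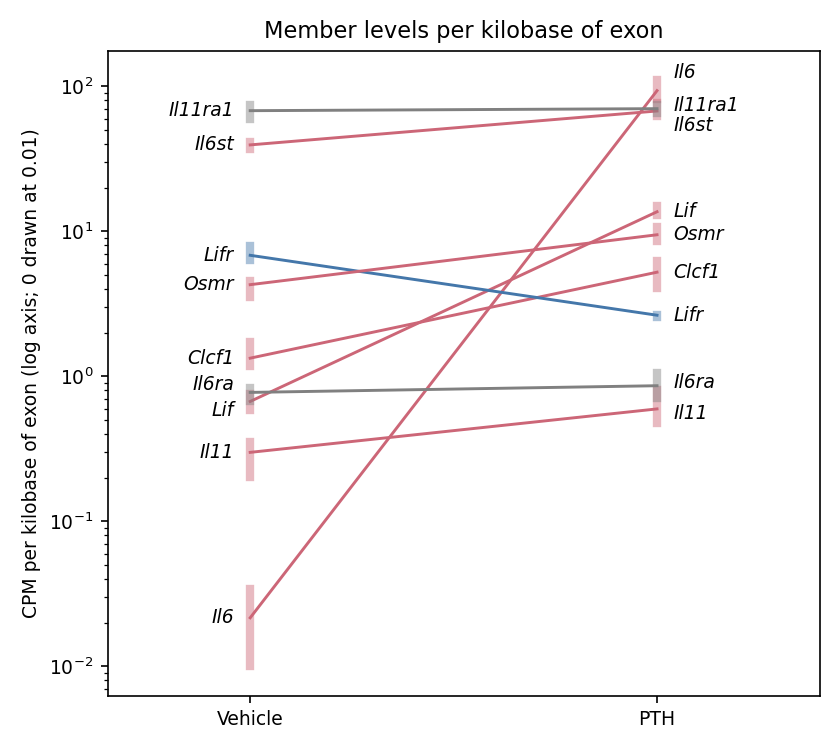
Mean CPM per kilobase of union exon for each member with vehicle and with PTH, on a log axis, with thick bars for the range of 4 samples. Lines are red for upregulated, blue for downregulated and grey for members that did not pass the test. Il6 crosses all other members, from 0.0216 to 93.4, and the lines of Lifr and Osmr cross.

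As a share of the 4 ligand transcripts per kilobase, Clcf1 made up 57.2% ± 3.03 with vehicle, Lif 29.0% ± 1.85, Il11 12.8% ± 2.09 and Il6 0.954% ± 0.773 (SD, n = 4). With PTH, Il6 made up 82.6% ± 1.55, Lif 12.2% ± 1.72, Clcf1 4.61% ± 0.351 and Il11 0.524% ± 0.0701. The ligand pool itself grew from between 1.99 and 2.87 to between 98.8 and 131 CPM per kilobase. Lif and Clcf1 therefore lost share while their levels rose. The receptor pool changed less, from between 109 and 128 to between 144 and 163 CPM per kilobase. Il11ra1 took 56.9% ± 1.67 of it with vehicle and 46.6% ± 2.10 with PTH, and Il6st 33.1% ± 0.870 and 44.8% ± 2.31. Osmr took 3.59% ± 0.261 and 6.29% ± 0.663, Lifr 5.77% ± 1.01 and 1.76% ± 0.123, and Il6ra 0.652% ± 0.0787 and 0.572% ± 0.0995. In proportion to its vehicle share, Lifr lost most.

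The remaining family genes were mostly low. With vehicle, though, the cardiotrophin-1 gene Ctf1 (5.64 CPM) was about level with Clcf1 (5.08 CPM), the highest of the 4 member ligands. Of 8 other ligands and partner subunits, 4 were tested, with a median log2 fold change of 0.24. Among these 4, 1 was upregulated and 1 was downregulated (25% each way), near the 23.3% and 22.5% of all tested genes. Osm, which encodes oncostatin M, rose from 0.344 ± 0.117 to 0.947 ± 0.287 CPM (log2 fold change 1.45, SE 0.397, edgeR adjusted p = 0.0103). Ctf1, which encodes cardiotrophin-1, fell from 5.64 ± 1.13 to 4.10 ± 0.458 CPM with overlapping groups (log2 fold change -0.46, SE 0.169, edgeR adjusted p = 0.0442), and the call was lost when any 1 of 7 of the 8 samples was left out. Ebi3, which encodes a subunit of IL-27, did not pass the test (0.48, adjusted p = 0.0753). Of 4 other receptor subunits, 2 (50%) were upregulated, against 23.3% of all tested genes, and none was downregulated, with a median of 0.61. Cntfr, the CNTF receptor subunit used by CLCF1, rose from 6.77 ± 0.704 to 59.1 ± 12.4 CPM (log2 fold change 3.13, SE 0.143, edgeR adjusted p = 5.72e-09), a larger change than that of any receptor subunit among the 9 members. Il31ra rose from 0.440 ± 0.253 to 1.10 ± 0.280 CPM (1.31, adjusted p = 0.0259), a call lost without PTH replicate 2, vehicle replicate 2 or vehicle replicate 3 (adjusted p 0.0672 to 0.0758). Il11ra2 and Il27ra had log2 fold changes of -0.09 and -0.34 and did not pass the test. For the receptor complex of CLCF1, then, Cntfr and Il6st were higher and Lifr lower.

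**Figure D4:**
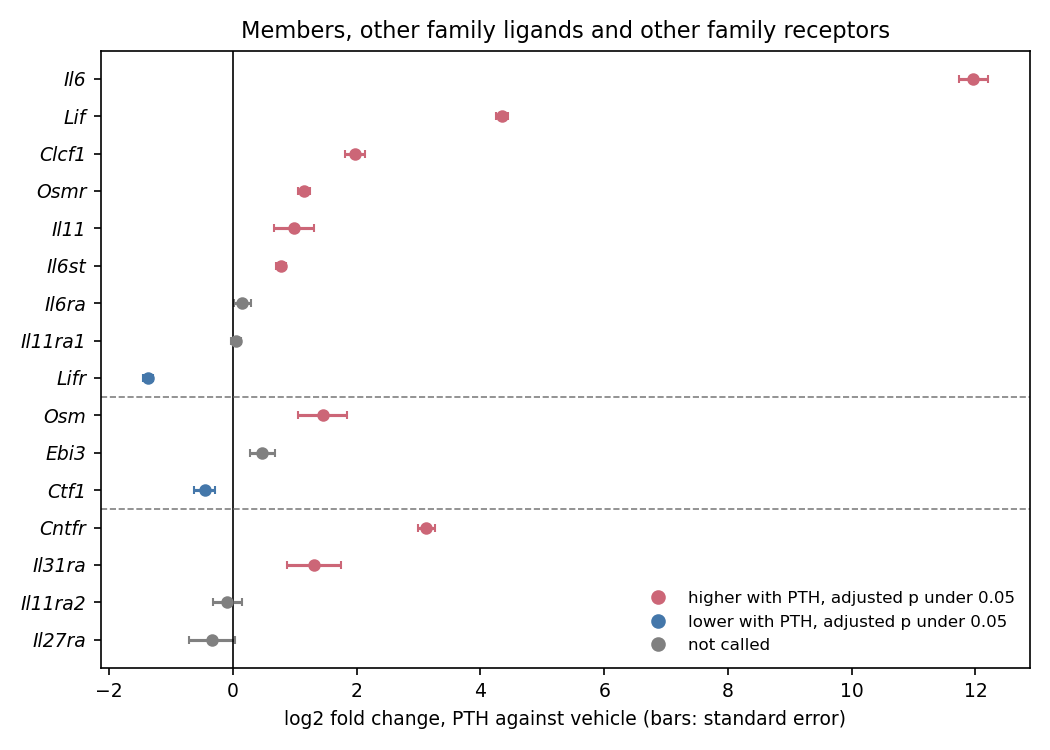
Log2 fold change of PTH against vehicle with its standard error for the 9 members (top), 3 other family ligands and partner subunits (middle) and other family receptor subunits (bottom). Red and blue mark genes higher or lower at an edgeR adjusted p under 0.05, and grey marks the rest. Il6 lies at 11.97, Lif at 4.35 and Cntfr at 3.13, and Lifr at -1.37 is the lowest of the genes shown.

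Among 13 JAK, STAT and adaptor genes that carry the signal from gp130, 4 were upregulated and 4 were downregulated, with a median log2 fold change of 0.15. These shares, 30.8% each way, were near the 23.3% higher and 22.5% lower among all tested genes. Stat3, the main transcription factor of the pathway, rose from 166 ± 1.38 to 346 ± 33.1 CPM (1.06, SE 0.0745, edgeR adjusted p = 2.55e-07). The kinase gene Jak1 and the adaptor gene Shc1 rose by 0.30 and 0.43. The adaptor gene Gab1 had the largest decrease of the list, from 54.6 ± 5.36 to 30.8 ± 2.38 CPM (-0.82, edgeR adjusted p = 8.36e-06). Stat5b (-0.75), Tyk2 (-0.66) and Stat5a (-0.46) were also downregulated.

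Of 15 genes that inhibit JAK-STAT signaling, 8 (53.3%) were upregulated and 5 (33.3%) were downregulated, with a median of 0.34, against 23.3% and 22.5% of all tested genes. Socs3, the feedback inhibitor that binds gp130, rose from 14.4 ± 1.37 to 446 ± 24.0 CPM (4.95, SE 0.0918, edgeR adjusted p = 5.44e-12). The SOCS family genes Socs1 (2.45), Cish (1.41), Socs2 (1.15), Socs4 (0.61) and Socs7 (0.34) and the phosphatase genes Ptpn1 (1.21) and Ptpn2 (0.78) also rose. The falls were Socs5, from 62.2 ± 4.20 to 32.1 ± 4.90 CPM (-0.95, edgeR adjusted p = 1.11e-05), and all 4 PIAS genes, whose products restrain STATs in the nucleus, Pias3 (-0.84), Pias4 (-0.53), Pias1 (-0.33) and Pias2 (-0.27).

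Among 22 genes listed as responses to STAT3 or gp130, 17 (77.3%) were upregulated and 2 (9.09%) were downregulated, with a median of 1.28, against 23.3% and 22.5% of all tested genes. The largest increases were in the transcription regulator genes Fos (4.58), Bcl3 (4.15) and Junb (4.06), the kinase gene Pim1 (3.96), and Cebpd (3.63) and Cebpb (3.33), which encode C/EBP factors. Fos, for example, rose from 8.89 ± 0.898 to 212 ± 20.6 CPM (edgeR adjusted p = 1.09e-11). The survival gene Bcl2l1 fell from 36.2 ± 2.05 to 22.2 ± 1.84 CPM (-0.71, edgeR adjusted p = 1.80e-05), and Hif1a had a log2 fold change of -0.22 with overlapping groups (adjusted p = 0.0330), a call lost in 6 of the 8 fits that left out 1 sample (up to 0.0977). Among the acute phase genes of the list, Serpina3n rose from 10.9 ± 1.99 to 19.7 ± 3.60 CPM (0.86, edgeR adjusted p = 7.42e-04), Saa3 rose by 0.79, Hp by 0.47 and Lrg1 by 1.68 from under 1 CPM, while Lcn2 (0.28) and Lbp (0.03) did not pass the test. Calls were lost without 1 sample in 6 of 8 such fits for Saa3 (adjusted p up to 0.0627), 5 for Lrg1 (0.141) and 4 for Hp (0.0810). The list was written from textbook knowledge but, like the others, with earlier results of these data known. Its share is therefore not an unbiased comparison with all tested genes. Many of its genes also respond to other signals.

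Shedding enzymes, which release soluble IL-6 receptor, and proteins that control cytokine mRNA were examined as steps around the ligand and its receptor. Of 4 shedding genes, 2 were downregulated, against 22.5% of all tested genes: Rhbdf1, which encodes an iRhom that assists ADAM17 (-0.53, edgeR adjusted p = 4.63e-05), and the sheddase gene Adam17 (-0.30, adjusted p = 0.0133), whose groups overlapped and whose call was lost without PTH replicate 3 (0.0520). Adam10 (-0.22) and Rhbdf2 (-0.21) did not pass the test, and the median of the list was -0.26. Of 8 genes whose products bind cytokine mRNAs, 7 (87.5%) were upregulated, against 23.3% of all tested genes, and none was downregulated, with a median of 0.96. They included genes for proteins of opposite action. Arid5a, which stabilizes Il6 mRNA, rose from 9.06 ± 2.27 to 81.3 ± 7.82 CPM (3.17, edgeR adjusted p = 1.10e-08). Zfp36, which encodes the destabilizing protein tristetraprolin, rose from 23.0 ± 1.77 to 151 ± 11.6 CPM (2.72, edgeR adjusted p = 1.28e-10), and Zc3h12a, which encodes the nuclease regnase-1, rose by 0.89. Zfp36l1 (2.10), Zfp36l2 (1.02), Rc3h2 (0.55) and Rc3h1 (0.17) were also higher, though Rc3h1 passed in only 1 of the 8 fits that left out 1 sample, and Elavl1 (0.15) did not pass the test.

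**Figure D5:**
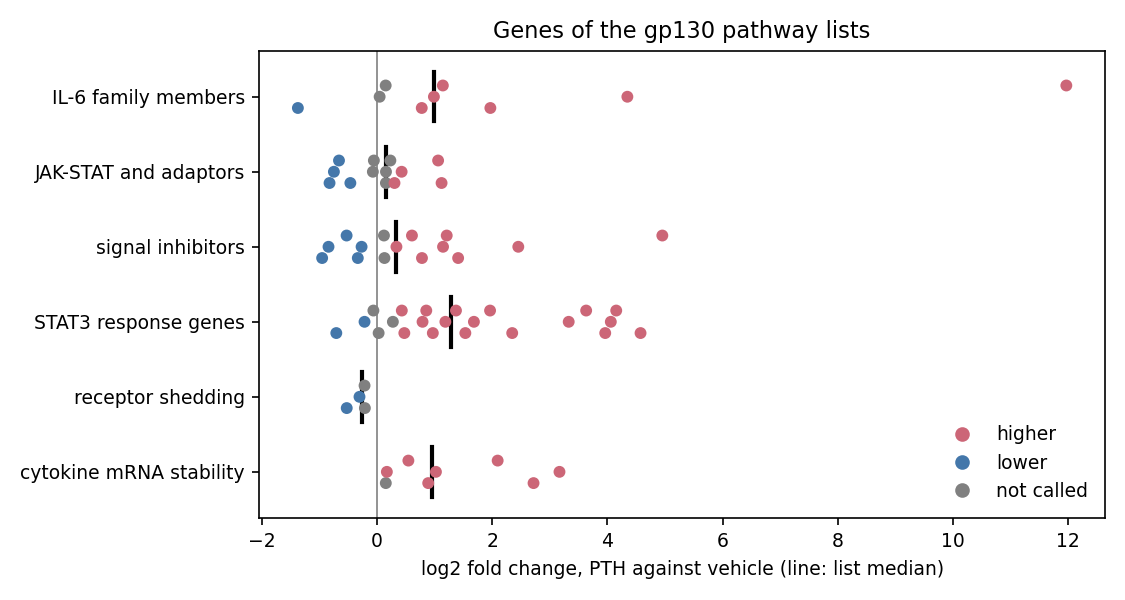
Log2 fold change of every tested gene of the members and 5 pathway lists, with a black line at each list's median. Red and blue mark genes higher or lower at an edgeR adjusted p under 0.05, and points are shifted vertically only to separate them. Medians run from -0.26 for receptor shedding to 1.28 for STAT3 response genes, and the JAK-STAT and inhibitor lists spread to both sides of 0.

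The genes with the nearest profiles over the 8 samples were found for each member among the 14064 candidates whose mean level reached 1 CPM, by the distance between log2(CPM + 0.5) values after the vehicle mean was subtracted. For Il6 these were Apold1, Has1 and Nr4a3, at distances of 2.08, 3.58 and 3.63, so no gene matched it closely. Apold1 rose from 1.30 to 362 CPM. Lif was closest to Phlda1 (0.39), Nr4a1 (0.41) and Nfil3 (0.42). Genes close to Clcf1 included Cstb (0.56) and Trp53inp2 (0.56), and Il11 was closest to Zkscan3 (0.24), Cacna1g (0.26) and Asap3 (0.28). The added 0.5 shrinks changes of genes with low levels. With it the log2 difference was 0.63 for Il11, against a fitted 0.99, and 8.68 for Il6, against 11.97. The fitted changes of the genes near Il11 were 0.60 to 0.69, smaller than its own. The profile of Il6st was nearest to Pja1 (0.10), Mtch1 (0.14) and Mapkapk2 (0.14), and that of Osmr to Plekha5 (0.16), Auh (0.24) and Pnp (0.29). Lifr was nearest to Aspm (0.26), Fhl3 (0.30) and Rnf144b (0.30), all downregulated. For the members that did not pass the test, the nearest were Tti2, Plekha6 and Dus1l (Il6ra) and Fam32a, Gng7 and Sema3c (Il11ra1). All members and neighbours share the same 8 libraries, and the distance says only how alike the values were.

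The cultures expressed osteoblast markers throughout, with 10 of 10 tested and a summed level between 92777 and 105104 CPM with vehicle and between 86744 and 125282 CPM with PTH. Most of this sum came from Col1a1 (44361 CPM with vehicle), Col1a2 (35071) and Sparc (16750). The other markers averaged from 103 CPM (Sp7) to 1407 CPM (Ibsp) with vehicle. Of the 10 markers, Sp7 (-1.78), Pth1r (-0.70) and Runx2 (-0.33) were downregulated (30%, against 22.5% of all tested genes) and none was upregulated (against 23.3%). Macrophages can also make IL-6 family cytokines. Of 11 macrophage markers, none was at 0 and 3 (27.3%) were upregulated, near the 23.3% of all tested genes, and none was downregulated. Those upregulated were Tyrobp (0.86), Lyz2 (0.63) and Cd14 (0.50, lost in 5 of the 8 fits without 1 sample). The list median was 0.34, with a summed level between 1041 and 1696 CPM with vehicle and between 1634 and 2102 CPM with PTH. The part of macrophages in the changes of the ligands, receptors and pathway genes was not tested. Endothelial markers summed to between 5.66 and 7.11 CPM over all 8 samples, with Emcn at 0. Of 4 tested, Kdr was higher (1.51, edgeR adjusted p = 0.0107), and 2 did not pass the test. Tek was lower (-0.49, edgeR adjusted p = 0.0215, lost in 2 of the 8 fits without 1 sample). These shares, 25% each way, were near those of all tested genes. Adipocyte markers summed to between 31.3 and 49.2 CPM. Of 5 tested, 1 (20%) was downregulated, Pparg (edgeR adjusted p = 3.66e-07), against 22.5% of all tested genes. The other 4 did not pass the test (Adipoq 0.15, Plin1 0.06, Fabp4 0.49 and Cidec 0.67). T and B cell markers summed to at most 0.166 CPM, with Cd3e and Cd3g at 0. In bulk samples such as these, fewer cells of a type and less RNA per cell cannot be told apart.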

How the data were processed

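Gene expression was measured by poly(A) RNA sequencing in 4 PTH-treated and 4 vehicle-treated cultures, grouped by their labels. HISAT2 was used by the authors to align paired reads to GRCm38 and StringTie2 to assemble transcripts. They deposited unnormalized counts, which StringTie2's companion script estimates from transcript coverage. Versions, annotation release, strand and the script's read-length setting are not given in the sources used here. A wrong read length would scale all counts alike, and would change the width of an interval that treats counts as reads. Where a symbol had several rows, the row with the highest mean was used, and each member had a single row.

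Counts were tested with edgeR 4.0.16 in R 4.3.3 (TMM, filterByExpr at a count of 10 and a total of 15, two-sided quasi-likelihood F-test), with Benjamini-Hochberg adjustment over all 16736 tested genes and no minimum fold change, as in the study's threshold. Alternatives were DESeq2 1.42.0, the study's own tool, DESeq2's size factors, no filter, the replicate number as a block, halved counts, counts summed by symbol, removal of the 10 most abundant genes, a minimum log2 fold change of 1, and leaving out each sample. Standard errors were back-calculated as the size of the log2 fold change divided by the square root of the F statistic. Intervals of fold changes are approximate, from this standard error and a t distribution with 6 degrees of freedom. Ratios and single members were compared by exact permutation over 70 assignments in SciPy 1.17.1. Similar sequence was sought with blastn 2.17.0 (95% identity, at least 150 bases). Lengths and positions came from GENCODE M21 and promoters from RefSeq. The fits were tested on simulated counts. At 33605610 to 56090654 counts per sample, genes with few counts, such as Il6 with vehicle and Il11, are the least precise.

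The members, lists and named genes were chosen with earlier results of these data known. Named genes were the members, called or described list genes and the 3 nearest profiles of each member. Same-numbered samples did not deviate together, so no pairing was used. Protein sequences and the study's other experiments were not used here. A few list genes and near profiles are not reported here by name, though the list counts and medians include them.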

Additional observations from a re-analysis of the deposited data

Results flagged for a closer look

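In groups of 4, a sample was singled out where its gap to the nearest other sample, divided by the group's range, exceeded Dixon's critical value at the 95% level. Of 52 groups examined, 7 were past it, where chance gives about 1 in 20, or 2.6. Vehicle replicate 4 accounted for 4 of the 7. It had 85.9 CPM of Lifr against 68.4 to 71.2 in the other vehicle-treated samples and 42.8 CPM of Osmr against 54.5 to 55.3. The same sample had a log2 ratio of -2.27 for Lifr to Il6st (others -2.69 to -2.66) and of -1.004 for Osmr to Lifr (others -0.37 to -0.31). These ratios reuse its Lifr and Osmr values, so the 4 are not independent deviations. Without vehicle replicate 4, the calls for Lifr and Osmr were kept. Clcf1 was at 6.61 CPM in vehicle replicate 2 against 4.45 to 4.74 in the others. In PTH replicate 1, Lifr was at 27.7 CPM against 28.7 in each of the others, a small gap in a narrow range, and Tnfsf11 was at 157 CPM against 115 to 120.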

How the results depend on the processing

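Counting each result under each alternative once, 455 kept their direction and their side of the threshold or stayed within 1.5 times the reported count, 31 counts moved by more, 9 no longer passed the threshold and 1 changed sign. The 455 include receptor ratios under other library scalings, summing by symbol or division by exon length, whose differences could not change. Of the 7 called members, 6 were called in all 15 fits and Il11 in 12. Il11ra1, never called, had log2 fold changes from -0.015, without vehicle replicate 4, to 0.086. A minimum log2 fold change of 1 left 1232 upregulated and 650 downregulated genes, and in the lists 2 upregulated and 0 downregulated JAK-STAT genes, 5 and 0 inhibitors, 4 upregulated mRNA stability genes and 0 downregulated STAT3 response, shedding or other ligand genes. Same-numbered samples had deviations correlated between -0.041 and 0.027, and no sample correlated best with its own number. With the replicate number as a block, 3571 genes were upregulated and 3432 downregulated, 1 STAT3 response gene and 0 other ligands were downregulated, and no other call count of a list moved by over 1.5 times. With DESeq2's size factors 1 STAT3 response gene was downregulated. When single samples were left out, downregulated STAT3 response genes ranged from 1 to 2, other ligands from 0 to 1 and shedding genes from 1 to 3, and upregulated other ligands and other receptors each from 1 to 2. The log2 difference ranged from -0.75 to -0.55 for Il6ra to Il6st and from 0.29 to 0.43 for Osmr to Il6st. With 3 samples against 4, the smallest exact p is 0.0286 or 0.0571 depending on the values, so these p-values do not bear on stability. Nor does the separation of the ratios, which the loss of a sample cannot undo. The causes of these moves were not tested beyond the loss of a sample or the stricter threshold. Depth limits Il6 with vehicle, at 0 to 4 counts, and Il11, at 21 to 56.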
